A study of Mus musculus with 8 samples.

Results

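The clustered protocadherins are neighbouring genes on mouse chromosome 18 that encode cell adhesion proteins of neurons. Members were the protein-coding genes named Pcdha, Pcdhb, Pcdhga, Pcdhgb or Pcdhgc with a number or a C-type number, 57 of 21883 protein-coding genes. They comprise Pcdha1 to Pcdha12 with the C-type genes Pcdhac1 and Pcdhac2, 22 beta genes, 12 gamma A genes, 6 gamma B genes and the C-type genes Pcdhgc3, Pcdhgc4 and Pcdhgc5. The cluster runs from 36930285 to 37841873 (mm10), and 100 kb on either side of it was also read.

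CTCF, a zinc finger protein that anchors chromatin loops together with cohesin, was mapped by chromatin immunoprecipitation and sequencing in primary cortical neurons of wild-type Swiss-Webster mice. Cells were dissected at embryonic day 16 and kept in culture until day 13. The NMDA group was given NMDA, a glutamate receptor agonist, at 50 µM for 10 minutes and left to recover for 50 minutes. Control cultures are labelled as having no treatment. The growth protocol, which is the same for every sample, names etoposide as well, a drug that poisons topoisomerase and that no sample's own labels list. Each condition has 2 ChIP replicates, called biological, from which the authors made 1 list of reproducible regions. The NMDA list holds 36186 regions on assembled chromosomes and the control list 33815. With 1 list per condition the replicate error of a difference between conditions is unknown, and no test between them was possible. The read depth is unknown, and intervals below are 95% intervals that cover counting error only. The files hold no expression values, so the cell type could not be checked against its markers.

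Each neuron transcribes a small, largely random choice of alpha, beta and gamma genes, and the combination of proteins on its surface is used to tell its own branches from those of other neurons. Each alpha and gamma gene has its own large first exon, spliced to constant exons at the end of its subcluster, while beta genes consist of 1 exon. CTCF binds a conserved element in most of the promoters and, in alpha genes, also a site inside the variable first exon. The C-type genes Pcdhac2, Pcdhgc4 and Pcdhgc5, as well as Pcdhb1, are known to lack that promoter element. The alpha genes are served by an enhancer called HS5-1, which lies between their constant exons and the beta genes and binds CTCF. The beta and gamma genes are served by enhancers beyond the gamma constant exons. CTCF and cohesin are thought to bring a chosen promoter to these enhancers.

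Regions were placed by their summits, the position listed for the peak of a region. In the NMDA list 83.6% of these were the mean of the 2 replicate summits within 1 bp, which need not be a point of highest signal. A region is called shared if it overlapped a region of the other list by at least 1 bp, and NMDA-only or control-only otherwise. Its strength is the authors' −log10 p-value, which in the NMDA list is the sum of 2 replicate columns. Because this value grows with sequencing depth, strength is compared between lists only as a percentile rank within each list, on which 100 is the strongest region. The replicate columns also differ in scale, with a median over the whole NMDA list of 32.1 in the first and 56.1 in the second. Equal raw values in the 2 columns are therefore not equal ranks. Gene starts are the lower-coordinate ends of the gene spans. The gene table gives no strand, but 13 of 14 alpha genes and 21 of 21 gamma genes end within 20 bp of a common upper end.

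Starts of the clustered protocadherins carried CTCF regions more often than the starts of protein-coding genes at large. A region lay within 1 kb of the start of 32 of 57 members in the NMDA list and of 23 in the control list. Over 17491 other protein-coding genes whose strand is known, 24.8% of starts had an NMDA region and 24.3% a control region. In the NMDA list the share of members, 56.1%, was 31.4 percentage points above this background (Newcombe interval 18.5 to 43.5). In the control list the share was 40.4%, and the interval of its difference from the background ran from 4.25 to 29.0 points. A start had a region in the NMDA list and none in the control list in 13 members, against a background of 3.97% of genes. The reverse held for 4 members, against a background of 3.54%. In both lists a region lay at 19 starts, and in neither at 21. Members are neighbours of related sequence and are not independent. The intervals treat them as independent, so they are likely too narrow for these genes.

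**Figure D1:**
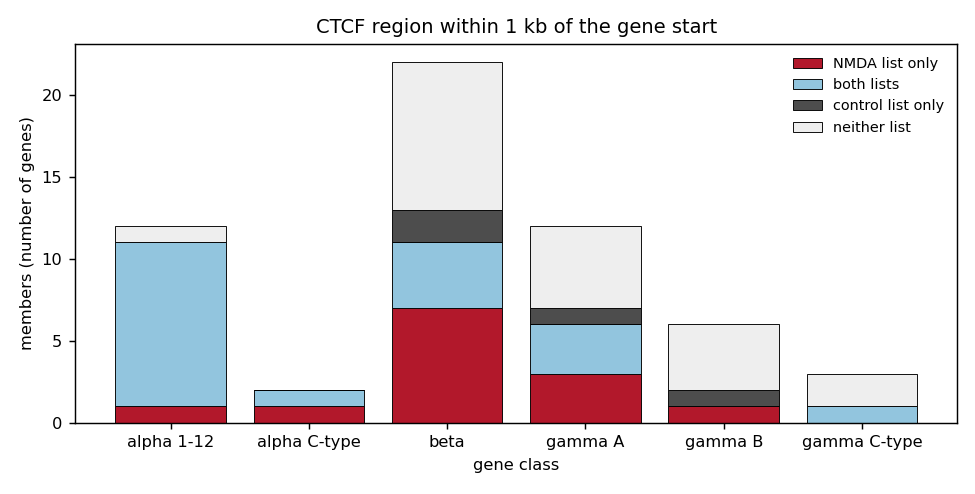
Number of members (y axis) in each gene class (x axis) with a CTCF region within 1 kb of the start in the NMDA list only, in both lists, in the control list only or in neither list. Most starts of the alpha genes are in both lists (10 of 12 variable and 1 of 2 C-type), while 7 beta starts are in the NMDA list only and 9 in neither.

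As regions, the cluster held 38 of the NMDA list and 28 of the control list, 24 of which were shared on each side. The 14 NMDA-only regions made up 36.8% of the NMDA regions, against 15.5% of the whole list, and the 4 control-only regions 14.3% of the control regions, against 9.22%. Most regions of the cluster were weak. Their median percentile rank was 23.2 in the NMDA list and 23.1 in the control list. NMDA-only regions ranked between 3.86 and 31.8 and control-only regions between 2.30 and 29.5. Of all NMDA regions in the weakest 35% of the list, a limit set after the values were seen, 41.0% were NMDA-only. The median −log10 p of the 14 NMDA-only regions of the cluster was 31.2. In the NMDA list the lowest of any region was 17.7 and the median 90.9. In the control list the lowest was 32.5 and the median 165.5. Raw values of the 2 lists are not on one scale, so they do not show which NMDA-only regions would have passed in the control list. No region lay in either list in the 100 kb before Pcdha1.

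**Figure D2:**
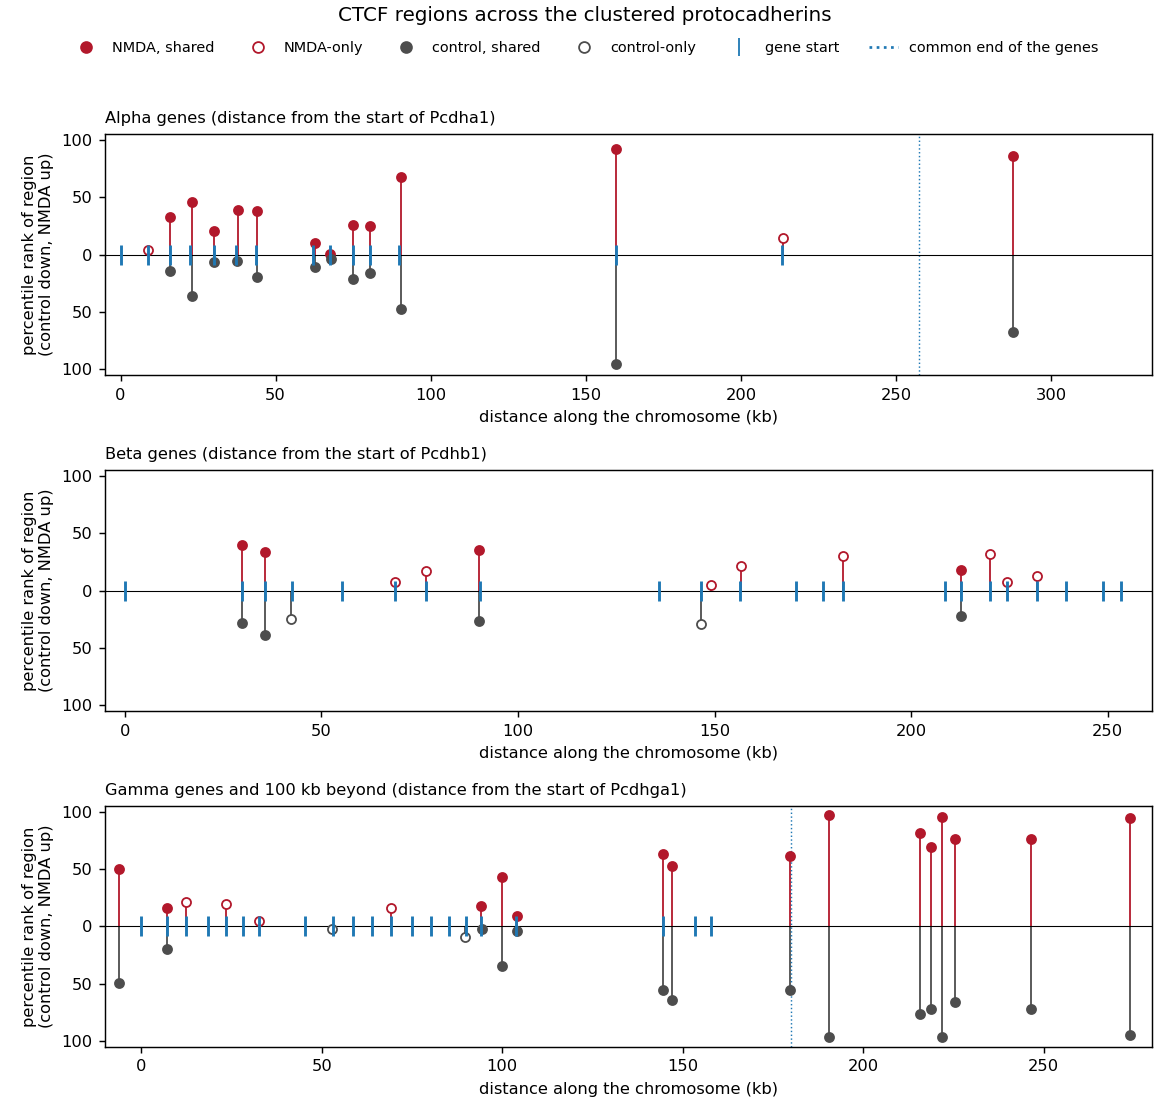
Percentile rank of each CTCF region (y axis, NMDA list upward, control list downward) along the alpha, beta and gamma subclusters and the 100 kb beyond them (x axis, distance in kb from the first gene start of each panel). Open circles are regions found in 1 list only, ticks are gene starts and dotted lines mark the common ends of the alpha and gamma genes; the tallest regions are at Pcdhac1, between alpha and beta, and beyond the gamma genes.

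Nearly every variable alpha gene was covered. Of Pcdha1 to Pcdha12, 11 had a region at the start in the NMDA list, against 24.8% of all starts. In the control list 10 had one, against 24.3%, and Pcdha1 was without a region in both. The strongest lay at Pcdha12, the variable gene nearest to the C-type genes (37019757 to 37021349). It had a −log10 p of 84.1 and 71.7 in the first and second replicate columns of the NMDA list, with ranks of 78.6 and 57.3 within these columns. Its percentile rank was 67.4 in the NMDA list and 47.6 in the control list. Pcdha4 followed (36952182 to 36953734), with 30.3 and 50.6 in the replicate columns and a percentile rank of 46.4 in the NMDA list and 36.1 in the control list. Pcdha6 came next (36967199 to 36968686), with 20.1 and 44.3, which ranked at 33.6 and 43.4 within the columns. Pcdha6 ranked at 39.3 in the NMDA list and 5.91 in the control list, the widest gap between the lists among the 24 shared regions of the cluster. The weakest alpha region was that of Pcdha9, with 7.88 and 11.4 in the replicate columns and ranks of 0.862 in the NMDA list and 3.35 in the control list. Pcdha2 had a region in the NMDA list only (36938797 to 36939796), with 8.05 and 13.9 in the replicate columns and a rank of 3.86.

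Shared alpha regions stood higher in the NMDA list than in the control list. Of the 10 pairs at Pcdha3 to Pcdha12, 8 had the higher rank in the NMDA list, and the median difference, NMDA minus control, was 12.1 percentile points (range −2.49 to 33.4). Over all 30261 pairs of the genome 61.9% had the higher rank in the NMDA list, and the median difference was 2.38 points. Taken from the first replicate column alone the alpha median was 12.2 points, and from the second alone 11.8. Less the genome-wide median of pairs with a similar mean rank, a comparison added after the values were seen, it was 8.41 points, and 8 of 10 pairs were above 0. Pcdha8 and Pcdha9 went the other way, with −0.434 and −2.49 points. The 8 shared regions among the beta, gamma A and gamma B genes had a median of 6.19 points with both columns, −6.25 points with the first replicate column alone and 6.94 with the second. It was 0.879 points with the NMDA list cut to the length of the control list.

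**Figure D3:**
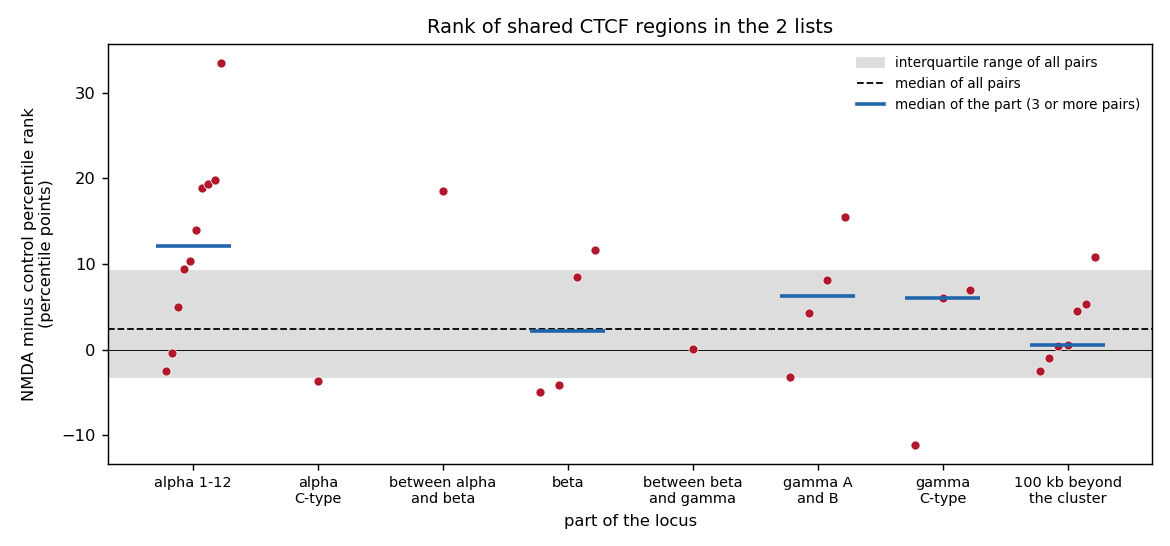
NMDA minus control percentile rank (y axis, percentile points) of each shared region, 1 point per pair, by part of the locus (x axis); the dashed line and grey band are the median and interquartile range of all 30261 pairs. The variable alpha genes reach from −2.49 to 33.4 with a median of 12.1, above the median of 2.38 of all pairs.

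Alpha regions also differed from those at beta starts in where they sat. The alpha regions reached across the gene start into the gene. All 11 NMDA regions and 9 of 10 control regions ran from at least 250 bp before the start to at least 500 bp after it. Among beta starts 1 of 11 NMDA regions and 0 of 6 control regions did so. Among gamma A and B starts it was 1 of 7 NMDA regions and 1 of 5 control regions. Alpha regions had a median width of 1258 bp in the NMDA list and 1300 bp in the control list, against 870 bp in the NMDA list and 804.5 bp in the control list for regions at beta starts. Summits inside the gene were found at 8 of 11 alpha starts in the NMDA list and 8 of 10 in the control list. At 2 of the 11 the NMDA replicates placed the summit on opposite sides of the start. Among gamma A and B starts, 2 of 7 summits were inside the gene in the NMDA list and 2 of 5 in the control list. In the control list these lay 408 bp inside Pcdhga11 and 346 bp inside Pcdhga12. At Pcdha4 the summit lay 494 bp inside the gene in the NMDA list and 490 bp in the control list. Pcdha8 had 415 bp in the NMDA list and 416 bp in the control list. Pcdha10 and Pcdha11 had their summits before the start, at −146 and −234 bp in the NMDA list and at −190 and −248 bp in the control list. Gene starts were taken as annotated and untranslated leaders differ between genes, so a distance from the start is not a distance from the first codon.

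At 3 variable alpha genes the replicates of the NMDA list placed the summit more than 200 bp apart. The first replicate column had its summit 351 bp inside Pcdha2, and the second had it at −203 bp, before the start. Pcdha3 was similar, with 508 bp inside the gene in the first column and −87 bp in the second. At Pcdha5 both summits were inside the gene, at 421 bp in the first column and 40 bp in the second. In the whole NMDA list 13.7% of regions had replicate summits more than 200 bp apart, and the median distance was 32 bp. The summit of a merged region is the mean of both replicate summits within 1 bp in 33 of the 38 NMDA regions of the cluster, so at these genes it falls between them. At Pcdha6 the NMDA and control summits lay 319 bp apart, at 560 bp inside the gene in the NMDA list and 241 bp in the control list. The NMDA replicates differed by 34 bp there. The control list has no replicate columns, so the distance between its replicate summits at Pcdha6 is unknown, and the control summit may also fall between them.

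**Figure D4:**
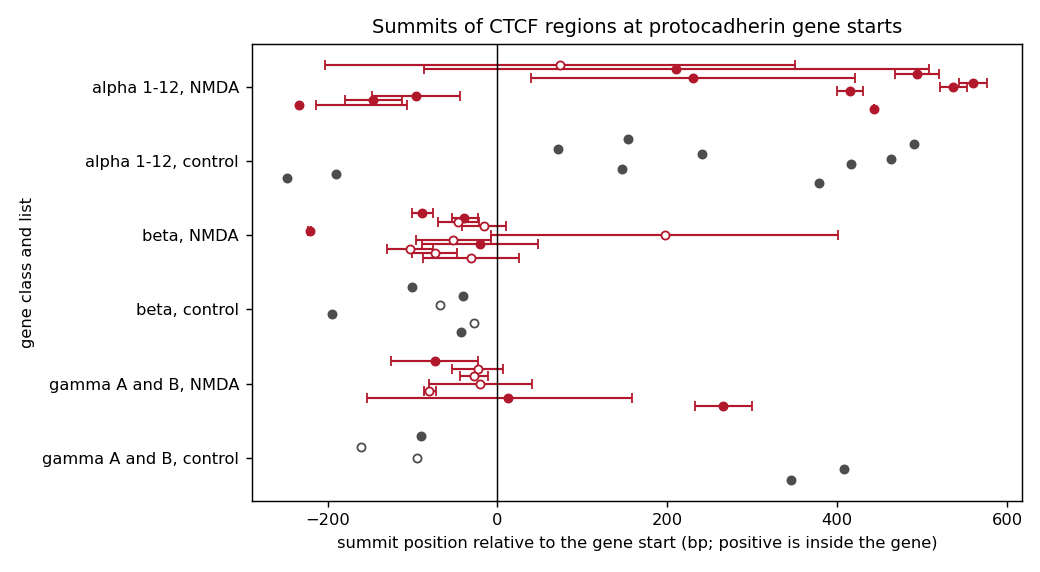
Position of each summit relative to the gene start (x axis, bp, positive inside the gene) for alpha 1 to 12, beta, and gamma A and B genes in the NMDA and control lists (y axis). Filled circles are shared and open circles list-only regions, and bars span the summits of the 2 NMDA replicates. Only summits within 1 kb of a start are shown. Alpha summits reach 560 bp inside the gene and gamma A and B summits 408 bp, while the beta summits shown lie within 250 bp of the start.

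The C-type alpha genes differed from each other. Pcdhac1 had the strongest start region of the cluster (37089347 to 37090552), with 182 and 185 in the replicate columns. It ranked at 91.8 in the NMDA list and 95.5 in the control list, and its summit lay before the start, at −206 bp in the NMDA list and −202 bp in the control list. Pcdhac2, one of the genes known to lack the promoter element, had no control region. It had a weak NMDA-only region (37143105 to 37144721), with 14.3 and 16.3 in the replicate columns and a rank of 14.8. This region was 1617 bp wide, and its replicate summits were 228 bp apart.

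In the stretch between the alpha constant exons and the beta genes, which is known to hold HS5-1, each list had 1 region. It was the widest of the cluster, at 2485 bp in the NMDA list (37216850 to 37219334) and 2239 bp in the control list (37217154 to 37219392). The replicate columns of the NMDA list had 140.5 and 141.5, which ranked at 89.5 and 79.6 within the columns, with their summits 970 bp apart. Its rank was 85.9 in the NMDA list and 67.4 in the control list. That difference of 18.5 points was the largest of any shared region outside the variable alpha genes. The position of HS5-1 itself is in none of the files, so the match rests on the order of the genes.

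Of 22 beta starts 11 had a region in the NMDA list, against the background of 24.8%, and 6 in the control list, a share of 27.3% against 24.3%. In both lists 4 starts had a region. Pcdhb2, Pcdhb3, Pcdhb8 and Pcdhb16 were those with shared regions. Pcdhb2 (37294151 to 37295268) had the highest rank of the beta genes in the NMDA list, 39.8, with 28.2 in the control list, but the replicate columns stood apart at 11.05 and 54.4. Pcdhb8 ranked at 35.2 in the NMDA list and 26.7 in the control list. Pcdhb3 ranked at 33.5 in the NMDA list and 38.5 in the control list. Pcdhb16 was weaker, with 17.7 in the NMDA list and 21.8 in the control list.

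Another 7 of the 22 beta starts had a region in the NMDA list only, against 3.97% of all starts. By rank these were Pcdhb17 at 31.8, Pcdhb14 at 29.9, Pcdhb11 at 21.3, Pcdhb7 at 17.03, Pcdhb19 at 12.9, Pcdhb6 at 7.57 and Pcdhb18 at 7.27. The replicate columns differed widely at some of these starts and little at others. The region at Pcdhb17 ranked at 8.07 by the first column and at 41.0 by the second, whereas that at Pcdhb7 ranked at 29.8 by the first and 11.5 by the second. At Pcdhb18 the ranks were 10.06 by the first and 9.71 by the second. Control-only regions lay at Pcdhb4 (37307104 to 37307787), with a −log10 p of 79.6 and a rank of 24.5, and at Pcdhb10 (37411252 to 37412126), with 92.5 and a rank of 29.5. At Pcdhb10 an NMDA-only region of rank 5.24 lay 2432 bp inside the gene. Neither list had a region at Pcdhb1, Pcdhb5, Pcdhb9, Pcdhb12, Pcdhb13, Pcdhb15, Pcdhb20, Pcdhb21 or Pcdhb22, so the last 3 genes of the array were bare. Summits within 1 kb of a beta start lay between −221 and 197 bp from it in the NMDA list and between −195 and −28 bp in the control list.

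The share of list-only regions was compared among the 3 subclusters. NMDA-only regions made up 8 of 12 in the beta subcluster, 4 of 11 in the gamma and 2 of 13 in the alpha subcluster. The alpha share was thus 15.4%, near the 15.5% of the whole NMDA list. The beta share exceeded the alpha share by 51.3 points (Newcombe interval 12.8 to 73.7). Gamma minus alpha was 21.0 points (−13.2 to 51.3) and beta minus gamma 30.3 points (−9.20 to 59.1), and both intervals include 0. Control-only regions made up 2 of 6 in the beta, 2 of 9 in the gamma and 0 of 11 in the alpha subcluster. Over the whole control list their share was 9.22%. All 3 differences between subclusters had intervals that include 0. The subclusters also differed in strength, and their order was not the same in both lists. The median rank in the NMDA list was 19.5 for beta, 19.1 for gamma and 26.2 for alpha, and in the control list it was 27.4 for beta, 19.3 for gamma and 15.6 for alpha. In the weakest 35% of the NMDA list, a limit set after the values were seen, 12 of 17 regions among beta, gamma A and gamma B genes were NMDA-only and 1 of 7 among the variable alpha genes, against 41.0% of all such regions. Every NMDA-only region of the cluster ranked below this limit. The limit therefore left out only shared regions of the cluster and could only raise these shares. The gap between beta and alpha depended on the authors' score. At a score of at least 830 in both lists, 6 of 8 beta regions, 1 of 2 gamma A and B regions and 5 of 8 variable alpha regions were NMDA-only, and 3 control regions were left at the variable alpha genes.

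Regions among the gamma A and gamma B genes had a median rank of 16.8 in the NMDA list and 6.66 in the control list, against 19.5 in the NMDA list and 27.4 in the control list for the beta genes. Of 12 gamma A starts 6 had a region in the NMDA list, against 24.8% of all starts, and 4 in the control list, against 24.3%. Among the 6 gamma B genes, Pcdhgb5 had one in the NMDA list only and Pcdhgb7 in the control list only. Shared regions lay at Pcdhga2, Pcdhga11 and Pcdhga12. Pcdhga2 ranked at 16.1 in the NMDA list and 19.3 in the control list. Pcdhga11 ranked at 17.6 in the NMDA list and 2.08 in the control list, with 8.05 and 25.02 in the replicate columns and replicate summits 311 bp apart. Pcdhga12 ranked at 8.67 in the NMDA list and 4.45 in the control list.

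NMDA-only regions lay at Pcdhga3 (rank 20.9), Pcdhga4 (19.1), Pcdhgb5 (16.1) and Pcdhga5 (4.76). The control-only region at Pcdhga7 had a rank of 2.30 and that at Pcdhgb7 one of 8.87. No region lay at Pcdhga1, Pcdhga6, Pcdhga8, Pcdhga9, Pcdhga10, Pcdhgb1, Pcdhgb2, Pcdhgb4 or Pcdhgb6. The strongest region of this stretch (37761232 to 37762313), ranked 43.0 in the NMDA list and 34.8 in the control list, lay at the start of Pcdhgb8. That gene is annotated as a transcribed pseudogene and is therefore not a member, and it is named after its value was seen.

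The gamma C-type end of the cluster carried stronger, shared regions. Pcdhgc3 had one at its start (37805894 to 37807244), with 73.7 and 62.1 in the replicate columns and a rank of 62.8 in the NMDA list and 55.8 in the control list. A second region lay 2517 bp inside Pcdhgc3 in the NMDA list and 2515 bp in the control list, with ranks of 52.9 in the NMDA list and 64.0 in the control list. Pcdhgc4 and Pcdhgc5, which are known to lack the promoter element, had no region at the start in either list. A further region lay at the common end of the gamma genes, with its summit at −421 bp from the end of the cluster in the NMDA list and −391 bp in the control list. It ranked at 61.1 in the NMDA list and 55.1 in the control list. Ahead of the gamma genes, 6172 bp before the start of Pcdhga1, stood a shared region (37655039 to 37656178) whose rank was 49.8 in the NMDA list and 49.6 in the control list.

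Beyond the gamma genes lay 7 regions in each list, all shared. Of these 6 were inside Diaph1, which encodes a formin that nucleates actin filaments, and the last had its summit just past Diaph1's upper end, by 57 bp in the NMDA list and 49 bp in the control list. Their ranks ran from 69.5 to 96.8 in the NMDA list and from 65.6 to 96.3 in the control list. The strongest (37851934 to 37853076) had its summit 10442 bp beyond the cluster in the NMDA list and 10475 bp in the control list. It had 161 and 363 in the replicate columns and ranked at 96.8 in the NMDA list and 96.3 in the control list. Next was a region whose summit lay 41796 bp beyond the cluster (37882114 to 37884745), with ranks of 95.1 in the NMDA list and 96.0 in the control list. The region at the upper end of Diaph1 (37934622 to 37936151) ranked at 94.8 in the NMDA list and 94.4 in the control list. The median difference over the 7 pairs was 0.499 points, with a range from −2.52 to 10.8. Enhancers of the beta and gamma genes are known to lie beyond the gamma genes, but their coordinates are in none of the files. Which of the 7 regions, if any, lie at these enhancers could not be told.

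The 2 replicate columns of the NMDA list were also ranked separately. First minus second column, the median was 2.24 percentile points over the 13 alpha regions, −3.74 over the 12 beta regions and −19.7 over the 8 gamma A and B regions, against 0.415 over the whole list. The first column was the lower one at 6 of 8 gamma A and B regions, 7 of 12 beta regions and 5 of 13 alpha regions. At Pcdhb2 the ranks were 11.4 in the first and 49.0 in the second column. At Pcdhgc3 the order was the opposite, with 75.2 in the first and 52.7 in the second. No source says which replicate each column holds, and the control list has no such columns.

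**Figure D5:**
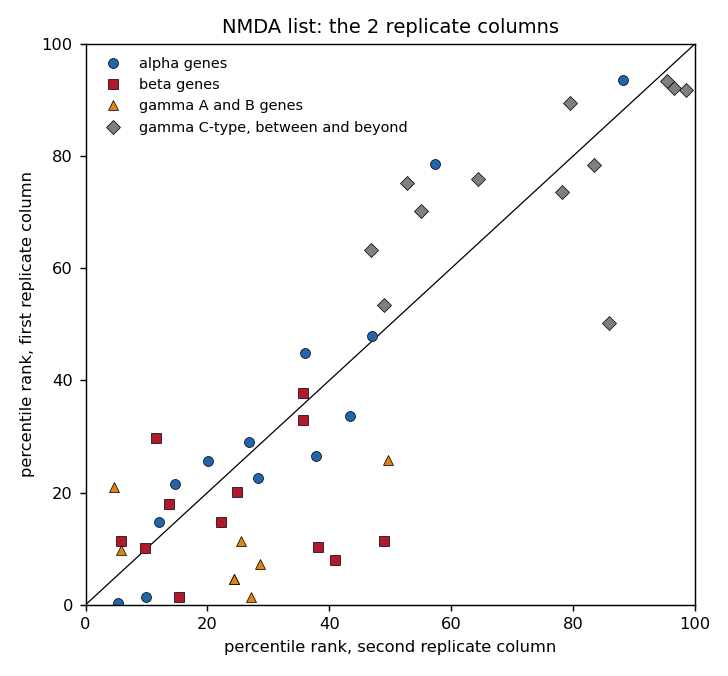
Percentile rank in the first replicate column (y axis) against that in the second (x axis) for each region of the NMDA list in the cluster and the 100 kb beyond it; the line marks equal ranks. Most gamma A and B regions and several beta regions lie below the line, with Pcdhb2 at 11.4 in the first and 49.0 in the second column.

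Related genes and other tandem clusters looked different. Of 11 non-clustered protocadherin genes listed, which encode adhesion proteins of similar build, the strand is known for 8, and 0 of these 8 starts had a region in either list, which allows a share of up to 32.4% (Wilson interval). The clustered genes exceeded them by 56.1 points (21.2 to 68.2) in the NMDA list and by 40.4 points (5.85 to 53.3) in the control list. Hox genes, which pattern the body axis and lie in 4 tandem clusters, had an NMDA region at 4 of 22 starts with a known strand and a control region at 3. The differences from them were 38.0 points (13.9 to 54.2) in the NMDA list and 26.7 points (3.79 to 42.4) in the control list. For starts with a region in the NMDA list only, the difference was 18.3 points from Hox genes (−1.18 to 31.2) and 22.8 points from non-clustered protocadherins (−10.8 to 35.2), and both intervals include 0. As regions, 2 of 24 NMDA regions in the Hox clusters were NMDA-only. The protocadherin share of 36.8% exceeded this by 28.5 points (6.42 to 45.5). Hox regions were stronger, with a median rank of 65.3 in the NMDA list and 64.9 in the control list. For control-only regions the difference was 5.95 points (−13.6 to 24.2).

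Of 12 genes for CTCF, cohesin and chromatin factors known to act on this cluster, the strand is known for 9, of which 5 had a region at the start in the NMDA list and 4 in the control list, where 24.8% of all starts had an NMDA region and 24.3% a control region. Ctcf, the cohesin subunit gene Smc3, Smchd1, which encodes a repressor of the cluster, and the DNA methyltransferase gene Dnmt3b had one in both. Ezh2, the gene of a histone methyltransferase, had one in the NMDA list only, as did 3.97% of all starts.

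Protocadherin genes are similar to each other in sequence, and how the authors placed reads that fit several genes is not given in the sources used here. The neurons came from Swiss-Webster mice, while the reference assembly is that of C57BL/6J. The part of either in the bare or list-only starts was not tested.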

How the data were processed

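CTCF was profiled by ChIP-seq with 2 replicates in each condition. The submitters' processing notes name MACS2, BWA, SAMtools, Trimmomatic and FastQC and the builds mm10 and GRCm38.p6, without versions or settings of the tools. The authors deposited 1 region list per condition, which its name assigns to the irreproducible discovery rate (IDR) method. The deposited −log10 p-value of each NMDA region is the sum of its 2 replicate columns in 36186 of 36186 regions, within 0.001. The score that the authors deposited runs from 540 to a ceiling of 1000. Input libraries were not analysed here.

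The members and gene lists were chosen with earlier results of these data known. Regions off the assembled chromosomes were left out (7 NMDA, 5 control). Shared regions were paired with the overlapping region of nearest summit where the choice was mutual. Named were the C-type genes, the 3 strongest start regions of each subcluster, members with a start region in 1 list or none, and regions off starts. Other members and examples were named after their values were seen. Intervals are 95% Wilson and Newcombe (statsmodels 0.14.6; Python 3.11.15, pandas 2.3.3). RefSeq (GRCm38.p6) gave the gene spans. The strand of the 17491 other genes came from RefSeq promoter entries. The overlap classes, start counts and rank differences were tested on the control list against a copy of it with regions removed and shifted at random. The replicate columns were not part of that test.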

Additional observations from a re-analysis of the deposited data

How the results depend on the processing

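No paired analysis was possible because each condition is 1 list over both replicates and no test was made. No list could be rebuilt with a replicate left out, so the replicate columns of the NMDA list were ranked alone instead. The counts of regions and starts kept within 1.5 times their value under the other definitions of sharing and start windows, except as follows. With shared regions defined by summits within 100 bp, 8 control regions were control-only. At the variable alpha genes that definition gave 4 NMDA-only and 3 control-only regions, and the NMDA list cut to the control list's length gave 0 and 1. At a score of at least 830 the cluster held 25 NMDA and 14 control regions, of which 2 were control-only. Under that score a start region was left at 20 members in the NMDA list and 9 in the control list, and at 2 in the control list only, with 1 NMDA-only and 0 control-only regions among gamma A and B genes and 5 NMDA-only regions at variable alpha genes, while 13 members still had one in the NMDA list only. The median rank difference of the 24 shared cluster regions, 7.57 points, was 7.37 with the first and 7.21 with the second replicate column alone. It was 4.29 when ranked among shared regions, 6.49 for pairs with summits within 100 bp, 4.17 with the NMDA list cut to the length of the control list, and 3.55 less the median of the same rank decile (chosen after seeing the data). For the variable alpha genes the same settings gave 11.8 with the second column, 7.20, 10.3, 8.32 and 8.41. The one reversal was the −6.25 points of the beta, gamma A and gamma B regions with the first column alone. For these regions, 6.19 points otherwise, the other settings gave 6.94 with the second column, 2.71 among shared regions, 4.22 with summits within 100 bp, 0.879 with equal lengths and 2.49 less the decile median. The cause of these changes was not tested, and the genome-wide median, 2.38 points, was itself 0.353 among shared regions and 0.315 with equal lengths. Depth is unknown, so a bare start means only that no region passed the authors' threshold there.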
